A study of Mus musculus with 12 samples.

Results

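The 35 genes described here encode the enzymes that make purine and pyrimidine nucleotides, turn them into deoxynucleotides and supply the folate-bound carbon units that these routes use, together with the salvage enzyme Hprt. They were taken by symbol from the table of raw counts, which holds 55573 genes, and all 35 were among the 13836 genes with enough reads to be tested. The lowest count of any of them in any library was 48. RNA came from tumourspheres, clusters of tumour cells grown in suspension, of the cell lines A1005, A1129 and A1471. The lines are independent and come from spindloid mammary tumours, tumours of elongated mesenchymal cells, of the genotype MMTV-Metmt;Trp53fl/+;Cre, in which a mutant Met receptor under the mouse mammary tumour virus promoter is combined with a conditional allele of the tumour suppressor Trp53, so all groups share these alleles. For 24 h, spheres of each line received DMSO as vehicle, Crizotinib, an inhibitor of the Met kinase, PD173074, an inhibitor of the FGF receptor kinases, or both drugs (Combo). Each treatment had 1 library per line, so n = 3 lines throughout, the replicate is the line, and each line gives a matched set of 4 libraries. Each group thus stands for 3 lines in culture, with no repeat culture of the same line.

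Cells obtain purine nucleotides in 2 ways. The de novo route builds inosine monophosphate (IMP) on phosphoribosyl pyrophosphate (PRPP) in a chain of reactions that takes carbon from 10-formyl-tetrahydrofolate, and IMP is then turned into AMP or GMP. The salvage route joins a free base to PRPP, which Hprt does for hypoxanthine and guanine and Aprt for adenine. Pyrimidines are built as orotate before the sugar phosphate is added, and serine, through Shmt1 and Shmt2, is a main donor of the carbon units that the folate enzymes carry. Dividing cells draw on all of these routes before and during DNA replication, and several of the deoxynucleotide enzymes are textbook S phase genes. Hprt is also widely used as a reference gene in quantitative PCR, and the paper's methods name Hprt and Gapdh as its qPCR references.

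Because most of the members moved together, the DNA in front of their start sites was examined for short motifs that are known to bind regulators of growth and nucleotide synthesis. RefSeq promoter windows (GRCm38.p6, 250 bases before to 50 after a start) were matched by symbol for 33 of the 35 members, in 40 windows. Both strands were searched for 6 motifs by their letters, and the letters of none are contained in another. Shares of all genes in this paragraph are over the 27025 genes with a window, whether or not they were tested for a change. The E-box CACGTG, bound by Myc and related factors, was present in windows of 6 of the 33 members (18.2%: Atic, Dtymk, Impdh2, Nme1, Paics and Tyms) and in those of 8.1% of all 27025 genes. CCAAT, the CCAAT box, was present for 14 members (42.4%) and 41.1% of all genes. The E2F motif TTTCCCGC was found for 2 members, Ppat and Prps2 (6.1%, against 1.2% of all genes), and its variant TTTGGCGC for 0 members (0.6% of all genes). The amino acid response element TGATGNAA was found for Prps1 alone (3.0%, against 4.5% of all genes), and the NRF1 motif for Adk, Ctps, Ppat and Shmt2 (12.1%, against 5.2% of all genes). These are matches of letters and not shown binding sites. Matches were also present for Paics (E-box and CCAAT box), Ctps (NRF1) and Ctps2 (CCAAT box), which were not called lower with the Combo. Whether a match goes with a fall was not tested. Parts of 4 windows, cut to the bases that lie before both the RefSeq and the GENCODE start of the gene, are given 5′ to 3′ on the gene's strand with matches in capitals, for Hprt as the gene the set is built around, and for Prps1, Rrm2 and Tyms as genes with a match and a fall in the Combo. They lie at chrX:52987828-52988077 (+ strand, Hprt, no match), chrX:140456353-140456602 (+ strand, Prps1, an amino acid response element and a CCAAT box), chr12:24708004-24708240 (+ strand, Rrm2, a CCAAT box) and chr5:30073626-30073875 (− strand, Tyms, an E-box).
Hprt: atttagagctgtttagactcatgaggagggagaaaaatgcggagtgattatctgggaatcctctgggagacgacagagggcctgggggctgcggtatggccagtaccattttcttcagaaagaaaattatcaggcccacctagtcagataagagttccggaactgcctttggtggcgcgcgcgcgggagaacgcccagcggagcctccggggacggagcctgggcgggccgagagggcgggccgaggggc
Prps1: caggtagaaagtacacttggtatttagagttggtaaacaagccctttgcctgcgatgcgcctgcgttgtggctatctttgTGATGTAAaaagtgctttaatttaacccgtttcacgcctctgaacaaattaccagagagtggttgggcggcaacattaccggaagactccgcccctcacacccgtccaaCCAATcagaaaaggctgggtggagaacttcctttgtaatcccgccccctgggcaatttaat
Rrm2: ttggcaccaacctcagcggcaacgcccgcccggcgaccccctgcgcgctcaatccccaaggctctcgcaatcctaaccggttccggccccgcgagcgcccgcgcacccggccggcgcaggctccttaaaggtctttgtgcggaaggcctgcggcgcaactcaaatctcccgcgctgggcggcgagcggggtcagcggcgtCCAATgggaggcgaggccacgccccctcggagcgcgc
Tyms: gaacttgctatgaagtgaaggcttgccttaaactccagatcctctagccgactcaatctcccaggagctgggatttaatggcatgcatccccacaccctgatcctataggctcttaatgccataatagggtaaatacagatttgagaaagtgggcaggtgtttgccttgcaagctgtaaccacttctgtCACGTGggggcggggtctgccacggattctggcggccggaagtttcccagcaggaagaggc

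The libraries held 13031492 to 17750476 counts and scaling factors were close to 1 (0.973 to 1.04). The mesenchymal markers fixed for these spheres summed to 3130 to 4510 with DMSO in CPM (counts scaled to a common library size), against 16.1 to 39.5 for the epithelial and 0.207 to 0.39 for the endothelial markers, and Cdh2 was near 0 among the mesenchymal ones. Immune markers summed to 4.34 to 31.3 CPM with DMSO and 8.21 to 41.9 with the Combo, and the pan-leukocyte gene Ptprc was at 13.6 to 20.5 CPM in the 4 A1005 libraries and at or below 0.138 in all others. The fibroblast and adipocyte markers summed to 99.6 to 175 CPM with DMSO and 150 to 394 with the Combo, with Adipoq and Plin1 near 0. The part of these marker genes' cells in the results was not tested. In RNA from whole spheres, fewer cells of a type and less RNA per cell cannot be told apart.

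With both inhibitors, transcripts of nearly the whole set went down. Of the 35 members, 24 (68.6%) fell against DMSO and 0 rose in edgeR's quasi-likelihood test of treatment, at a Benjamini-Hochberg adjusted p under 0.05 over all genes. In the same test 8.28% of all 13836 genes fell and 6.1% rose. The median log2 fold change of the members was −1.21, from −3.86 for Tk1 to 0.44 for Ctps2, while the median of all tested genes was 0.02. With the cell line as a replicate block, 31 members (88.6%) fell and 1, Ctps2, rose, beside 26.2% of all genes that fell and 28.6% that rose. The summed level of all members was 5177, 6388 and 6708 CPM with DMSO in A1005, A1129 and A1471, and 2984, 2915 and 2953 CPM with the Combo. The Combo libraries thus lay close together while the DMSO libraries did not, and each was below each DMSO library. All 3 Combo libraries were below all 3 DMSO libraries for 26 members (74.3%), against 16.1% of all genes, and above them for Ctps2 alone, against 13.8% of all genes. The unpaired count changed with the line that was left out. It was 26 without A1005, 3 without A1129 and 2 without A1471, beside 1142, 236 and 108 falls over all genes. With the block it was 29 to 31 falls whichever line was left out.

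**Figure D1:**
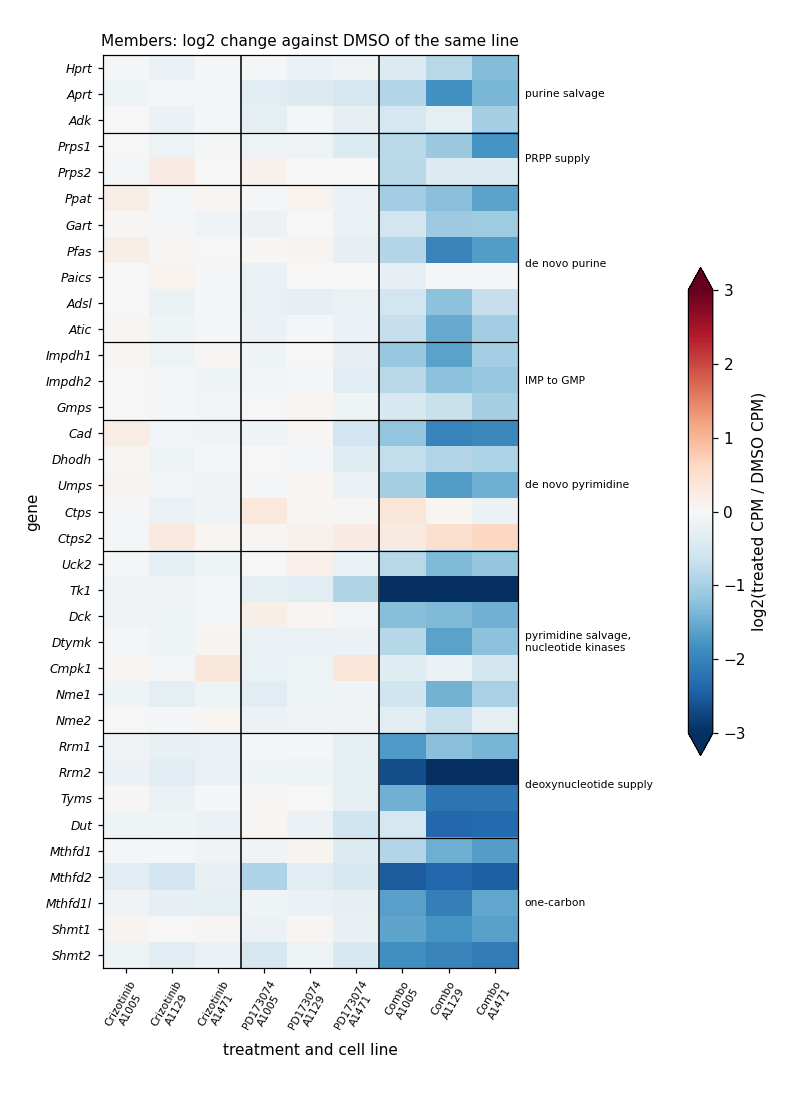
Each cell is the log2 ratio of the CPM of a treated library to the DMSO library of the same line, for the 35 members (rows, in groups by role) and the 9 treated libraries (columns), with blue for lower and red for higher levels. The Crizotinib and PD173074 columns are close to white, and the 3 Combo columns are blue in most rows, pale for Paics, Ctps and Cmpk1, and red for Ctps2.

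Hprt, on chromosome X at 52988137 to 53021659 (mm10), was among the members that fell less. Its level was 116, 155 and 176 CPM with DMSO in A1005, A1129 and A1471, 112, 138 and 169 with Crizotinib, 113, 138 and 163 with PD173074 and 88.3, 86.9 and 71.7 with the Combo. The order of the lines was thus the same in the first 3 treatments, and with the Combo all lines lay below the lowest DMSO library. The mean went from 149 ± 30.4 to 82.3 ± 9.16 CPM (SD, n = 3), or 55.2% of the DMSO level, with a log2 fold change of −0.86 (SE 0.21) and an adjusted p of 0.027 in edgeR. Ordered from the deepest fall, Hprt was 26th of the 35 members, and 12.9% of all tested genes had a lower fold change. Without A1129 and without A1471 the adjusted p of Hprt in edgeR was 0.237 and 0.197, and the fold change was −0.86 and −0.61. With the block it was −0.82, with an adjusted p of 0.00147.

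Among the other purine salvage enzymes, Aprt, the adenine counterpart of Hprt, fell more in the fit. Aprt was at 216, 193 and 186 CPM with DMSO, 196, 185 and 181 with Crizotinib, 172, 147 and 129 with PD173074 and 116, 55.1 and 72.3 with the Combo, a log2 fold change of −1.29 (SE 0.24, edgeR adjusted p = 0.00761). Adk, which phosphorylates adenosine, was at 66.4, 85.7 and 107 CPM with DMSO, 67.4, 75.7 and 102 with Crizotinib, 55.5, 82.3 and 90.8 with PD173074 and 47.1, 70.3 and 53.8 with the Combo. The Adk groups overlapped, because the A1129 library with the Combo was above the A1005 library with DMSO, and its log2 fold change of −0.60 passed in edgeR with the block (adjusted p = 0.00594) but not without it (0.158). Each of the 3 salvage genes was nevertheless lower with the Combo in each of the 3 lines.

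PRPP, which both purine routes and the pyrimidine route consume, is made by the synthetases Prps1 and Prps2, both on chromosome X. Prps1 was at 104, 126 and 188 CPM with DMSO, 104, 113 and 181 with Crizotinib, 94.1, 114 and 142 with PD173074 and 60.2, 58 and 55.2 with the Combo (log2 fold change −1.27, SE 0.27, edgeR adjusted p = 0.0141). The lines lay far apart with DMSO and close together with the Combo. Prps2 was at 73, 105 and 111 CPM with DMSO, 70.2, 125 and 111 with Crizotinib, 80.2, 106 and 110 with PD173074 and 41.2, 78.3 and 82.8 with the Combo, so its A1129 and A1471 libraries stayed above the A1005 level of DMSO. Its log2 fold change was −0.51 (95% confidence interval −1.19 to 0.17, edgeR adjusted p = 0.306) and −0.55 with the block (adjusted p = 0.00291). Whether the paralogs differed from each other was not tested.

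In the de novo purine chain, 4 of 6 enzymes fell in the unpaired fit and 5 with the block. The median of the 6 log2 fold changes was −1. Pfas, the formylglycinamidine synthase, changed most. It was at 68.9, 96.4 and 118 CPM with DMSO, 77.4, 98.1 and 119 with Crizotinib, 70.5, 103 and 99.1 with PD173074 and 37.6, 23.9 and 36.8 with the Combo (log2 fold change −1.52, SE 0.27, edgeR adjusted p = 0.00559). Paics, which carries out the carboxylase and SAICAR synthetase steps, changed least, at 444, 483 and 443 CPM with DMSO, 451, 518 and 425 with Crizotinib, 388, 483 and 437 with PD173074 and 373, 464 and 424 with the Combo. Its log2 fold change was −0.12 with a 95% confidence interval of −0.44 to 0.20, and neither fit called it (edgeR adjusted p = 0.648, and 0.26 with the block). Ppat, the amidotransferase that commits PRPP to the pathway, lies head to head with Paics on chromosome 5 and is given for that reason, having been picked with its values known. Ppat spans 76913249 to 76951578 on the − strand and Paics 76951307 to 76967509 on the + strand, and they share 272 exon bases, 6.2% of the exons of Ppat and 8.7% of those of Paics. Since the use of strand in counting is not given in the sources used here, reads in the shared bases cannot be assigned with certainty. Ppat was at 86.1, 146 and 156 CPM with DMSO, 98.9, 139 and 164 with Crizotinib, 84.4, 157 and 138 with PD173074 and 42, 60.9 and 51.7 with the Combo (log2 fold change −1.33, SE 0.31, edgeR adjusted p = 0.0195). The 95% confidence interval of Ppat, −2.01 to −0.64, did not overlap that of its neighbour. Gart, a trifunctional enzyme, and Atic, which closes the chain, had log2 fold changes of −0.94 and −1.07 (edgeR adjusted p = 0.0442 and 0.00469; that of Gart was 0.0534 with limma-voom, 0.0639 with total counts and 0.0682 with no filter), and Adsl, which acts in the chain and again on the way to AMP, −0.76 (adjusted p = 0.182, and 0.00035 with the block).

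**Figure D2:**
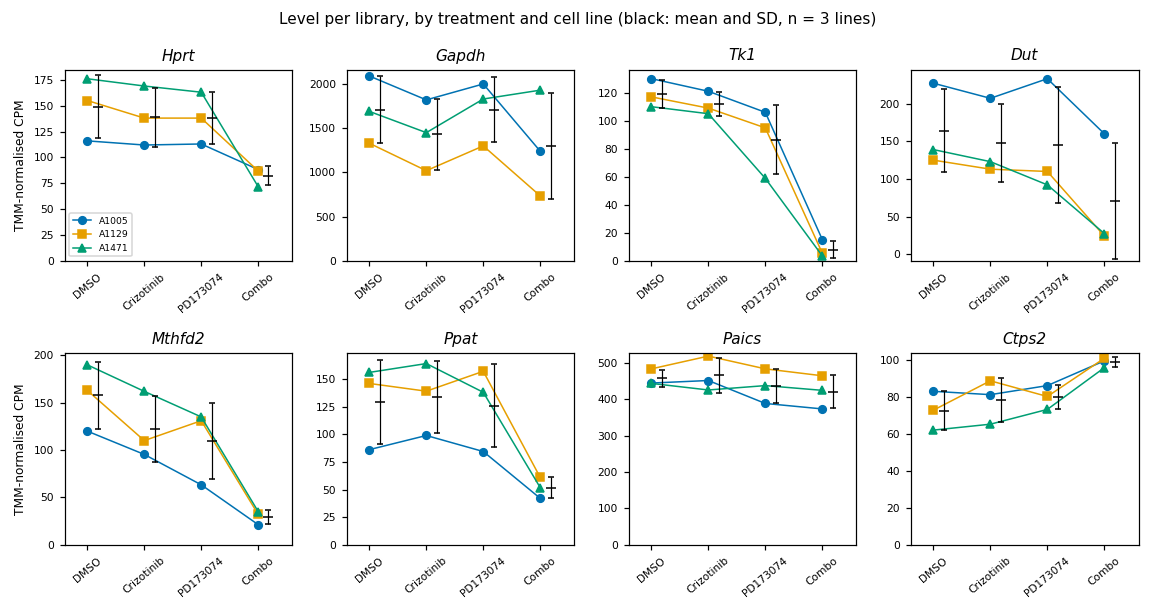
TMM-normalised CPM (vertical axes, a scale of its own for each gene) by treatment (horizontal axes) for Hprt, Gapdh, Tk1, Dut, Mthfd2, Ppat, Paics and Ctps2, with 1 coloured line per cell line and black marks for the mean and SD of the 3 lines. Tk1 drops to 15.3, 5.57 and 3.62 CPM with the Combo, Dut stays high in A1005 only, and Paics is nearly flat.

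On the branch from IMP to GMP, the IMP dehydrogenases Impdh1 and Impdh2 both fell. Impdh1 was at 55.3, 101 and 98.3 CPM with DMSO, 57.5, 90.7 and 101 with Crizotinib, 50.2, 99.6 and 83.3 with PD173074 and 25, 33.2 and 48.1 with the Combo (log2 fold change −1.26, SE 0.36, edgeR adjusted p = 0.0429, which was 0.0539 with total counts and 0.0598 with no filter). Impdh2 was at 280, 479 and 467 CPM with DMSO, 284, 457 and 424 with Crizotinib, 262, 459 and 368 with PD173074 and 157, 205 and 213 with the Combo (log2 fold change −1.09, SE 0.29, edgeR adjusted p = 0.0322). For both genes the highest Combo library lay below the lowest DMSO library. Gmps, the GMP synthetase that follows them, was at 240, 365 and 364 CPM with DMSO, 240, 347 and 344 with Crizotinib, 236, 378 and 335 with PD173074 and 173, 230 and 182 with the Combo. Its groups did not overlap either, but its log2 fold change of −0.73 passed in edgeR with the block (adjusted p = 0.000392) but not without it (0.0782). Without the block it passed in DESeq2 (adjusted p = 0.0422), and in edgeR when A1005 was left out (0.0288).

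The pyrimidine route held both a deep fall and the only rise, which edgeR called with the block and DESeq2 without it. Cad, the trifunctional protein that starts the route, was at 163, 446 and 504 CPM with DMSO, 189, 422 and 466 with Crizotinib, 148, 455 and 336 with PD173074 and 71.9, 111 and 132 with the Combo. A1005 began far below the other two lines, the groups did not overlap, and the log2 fold change was −1.82 (SE 0.54, edgeR adjusted p = 0.0489, and 5.01e-05 with the block). The unpaired call lay at the threshold and was lost with limma-voom (adjusted p = 0.0664), DESeq2 size factors (0.0525), total counts (0.0584) and no filter (0.0595). Umps, which turns orotate into UMP, fell by 1.35 on the log2 scale (SE 0.17, edgeR adjusted p = 0.00115). The mitochondrial dehydrogenase Dhodh, the lowest of the 35 per kilobase of exon at 3.79 CPM per kb with DMSO, had a log2 fold change of −0.88, with an adjusted p in edgeR of 0.139, and of 0.000229 with the block. It also passed without the block when A1005 was left out (0.0357). The CTP synthases, which amidate UTP, were not called lower in either fit. Ctps was at 143, 162 and 163 CPM with DMSO, 140, 142 and 150 with Crizotinib, 178, 166 and 166 with PD173074 and 184, 170 and 144 with the Combo, with a log2 fold change of 0.09 (95% confidence interval −0.19 to 0.36, edgeR adjusted p = 0.71, and 0.517 with the block). Ctps2, on chromosome X, was at 83.1, 72.9 and 62.1 CPM with DMSO, 81.3, 88.8 and 65.3 with Crizotinib, 86.2, 80.3 and 73.3 with PD173074 and 99.6, 101 and 95.9 with the Combo. Each Combo library of Ctps2 was above each DMSO library, and its log2 fold change of 0.44 (SE 0.15) had an adjusted p of 0.081 in edgeR without the block and 0.00315 with it, and of 0.0232 in DESeq2 without it.

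Tk1, the cytosolic thymidine kinase of the salvage route, had the deepest fall of the 35. It was at 130, 117 and 110 CPM with DMSO, 121, 109 and 105 with Crizotinib, 106, 94.9 and 58.9 with PD173074 and 15.3, 5.57 and 3.62 with the Combo. The Combo mean was 8.17 ± 6.27 CPM (SD, n = 3), or 6.86% of the DMSO mean, and the log2 fold change was −3.86 (SE 0.49, edgeR adjusted p = 0.00115). Other kinases of this group fell less. Dck, the deoxycytidine kinase, Dtymk, which phosphorylates dTMP, and Uck2, the uridine-cytidine kinase, had log2 fold changes of −1.35, −1.18 and −1.07 (edgeR adjusted p = 0.00289, 0.00497 and 0.0118). Cmpk1, which phosphorylates UMP and CMP, was at 82.8, 112 and 53.6 CPM with DMSO, 86.5, 107 and 68.5 with Crizotinib, 72.3, 101 and 69.5 with PD173074 and 64, 97.6 and 36.4 with the Combo. Its levels followed the line more than the treatment, and its log2 fold change of −0.33 (95% confidence interval −1.15 to 0.49) passed in neither fit (edgeR adjusted p = 0.623, and 0.0718 with the block).

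The nucleoside diphosphate kinases Nme1 and Nme2, neighbours on chromosome 11, turn diphosphates into triphosphates. Nme1 was at 142, 153 and 160 CPM with DMSO, 131, 126 and 143 with Crizotinib, 115, 137 and 149 with PD173074 and 94.4, 57.6 and 81.2 with the Combo (log2 fold change −0.96, SE 0.18, edgeR adjusted p = 0.00776). Nme2 was at 133, 126 and 112 CPM with DMSO, 131, 122 and 117 with Crizotinib, 118, 117 and 105 with PD173074 and 107, 79.9 and 91.5 with the Combo (log2 fold change −0.41, SE 0.14, edgeR adjusted p = 0.078, and 0.0045 with the block, and 0.0436 in DESeq2 without it). For both genes the Combo libraries lay below all DMSO libraries. Both share exons with the read-through gene Gm20390, 12.5% of those of Nme1 and 48.9% of those of Nme2, and that gene holds 140 counts over all 12 libraries, so reads in the shared bases are uncertain. Gart shares 19.7% of its exons with the antisense gene Gm15964 (67 counts) and Shmt1 4.7% with Smcr8 on the opposite strand (15295 counts), to which the same limit applies.

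The enzymes that supply deoxynucleotides had the lowest median of the 8 groups, −1.71, with 3 of 4 called without the block and 4 with it. Their summed level went from 764.1, 922.3 and 862.8 CPM with DMSO to 295.7, 253 and 215.3 with the Combo. Rrm2, the small subunit of ribonucleotide reductase, was at 221, 287 and 219 CPM with DMSO, 196, 230 and 192 with Crizotinib, 203, 256 and 181 with PD173074 and 34.7, 33.7 and 15.1 with the Combo (log2 fold change −3.12, SE 0.31, edgeR adjusted p = 0.000329). Its partner Rrm1, the large subunit, fell by 1.41 on the log2 scale (SE 0.30, edgeR adjusted p = 0.0131), and Tyms, the thymidylate synthase, by 2.01 (SE 0.42, adjusted p = 0.0118). Dut, which removes dUTP, was at 227, 125 and 139 CPM with DMSO, 207, 113 and 123 with Crizotinib, 233, 110 and 92.2 with PD173074 and 160, 24.4 and 27.7 with the Combo. The A1129 and A1471 libraries of Dut with the Combo were far below the rest, while the A1005 library stayed above the DMSO libraries of the other lines. Its unpaired log2 fold change was −1.21 (95% confidence interval −2.75 to 0.33, edgeR adjusted p = 0.287), and with the block it was −1.61 (adjusted p = 0.00285). Without A1005 the unpaired value was −2.33 (edgeR adjusted p = 0.00511).

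All 5 folate enzymes fell in the unpaired fit, with a median log2 fold change of −1.69. Their summed level was 647.7, 741.9 and 1032 CPM with DMSO and 218.8, 202.4 and 283 with the Combo. Mthfd2, the mitochondrial methylenetetrahydrofolate dehydrogenase, was at 120, 163 and 190 CPM with DMSO, 95.4, 110 and 162 with Crizotinib, 63.3, 131 and 135 with PD173074 and 21.2, 32 and 35 with the Combo. Its Combo levels lay under the single-inhibitor levels in every line, and the log2 fold change was −2.42 (SE 0.35, edgeR adjusted p = 0.00217). Mthfd1, the cytosolic trifunctional enzyme, changed least in this group, at 158, 195 and 263 CPM with DMSO, 155, 186 and 246 with Crizotinib, 148, 206 and 196 with PD173074 and 85.4, 70.2 and 83.3 with the Combo (log2 fold change −1.37, SE 0.24, edgeR adjusted p = 0.00504). Mthfd1l, the mitochondrial formate-producing enzyme, fell by 1.69 on the log2 scale (SE 0.32, edgeR adjusted p = 0.00825). Of the serine hydroxymethyltransferases, the cytosolic Shmt1 was at 65.2, 101 and 151 CPM with DMSO, 69.3, 100 and 156 with Crizotinib, 58.1, 105 and 130 with PD173074 and 21.8, 29.5 and 49.2 with the Combo (log2 fold change −1.66, SE 0.45, edgeR adjusted p = 0.0366). The mitochondrial Shmt2 was at 177, 191 and 282 CPM with DMSO, 160, 152 and 244 with Crizotinib, 127, 171 and 203 with PD173074 and 49.2, 48.6 and 66.1 with the Combo (log2 fold change −1.99, SE 0.27, edgeR adjusted p = 0.00178). Neither gene's groups overlapped.

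**Figure D3:**
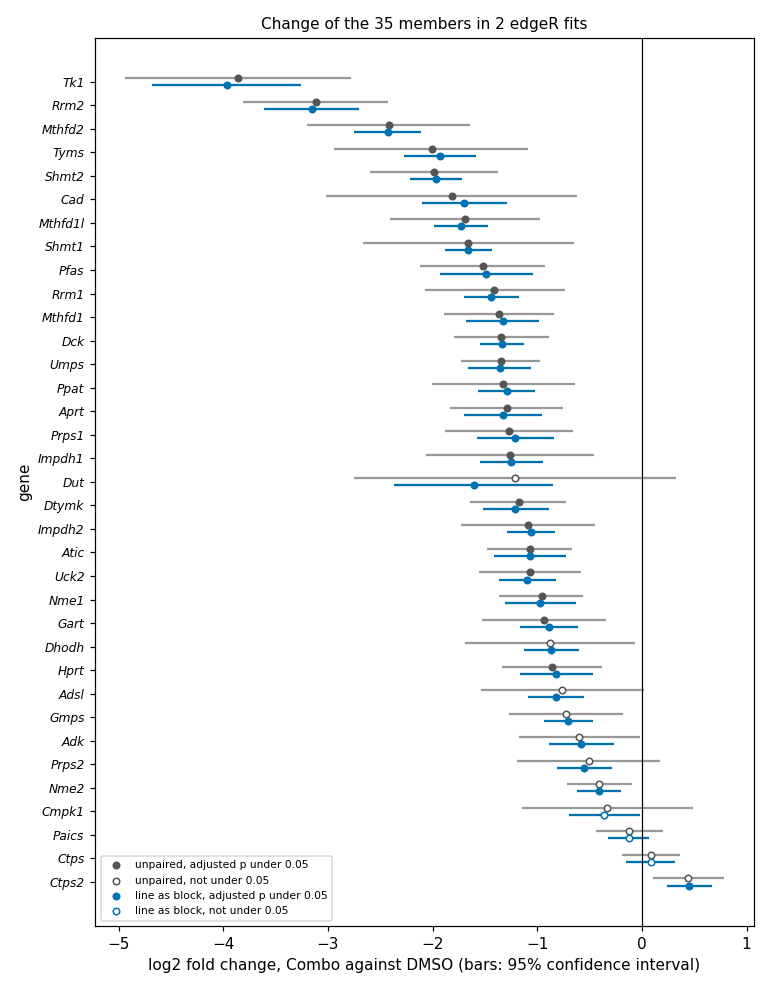
Log2 fold change of the Combo against DMSO (horizontal axis) for the 35 members, ordered by the unpaired value, with 95% confidence intervals from the unpaired edgeR fit (grey) and the fit with the line as a block (blue), where filled points passed an adjusted p of 0.05. Tk1 at −3.86 and Rrm2 at −3.12 lead, Hprt is 26th at −0.86, the interval of Dut is the widest in the unpaired fit, and Ctps2 is the only point to the right of 0 with a filled mark.

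Compared per length, the members differed widely in level. With DMSO, Paics was highest at 145 CPM per kb of exon, followed by Impdh2 at 133, Aprt at 123, Hprt at 116 and Nme2 at 105. Hprt was thus the fourth highest of the 35 on this scale with DMSO, and its mean with the Combo was 63.8 CPM per kb. The length used joins all annotated exons of a gene and is not that of its main transcript. It ran from 1171 bases for Nme2 and 1289 for Hprt to 11012 for Rrm1, so the order also depends on the annotation. Rrm2 went from 87.5 to 10.1 CPM per kb.

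Placed among all tested genes, the members lay mostly on the lower side. For the Combo against DMSO, 33 of the 35 had a negative log2 fold change, as did 48.7% of all genes, and 29 (82.9%) had an unadjusted p under 0.05, as did 28.9% of all genes. A log2 fold change beyond 1.5 in size, with an adjusted p under 0.05, was reached by 9 members (25.7%) and 5.74% of all genes. In 12 members (34.3%), and in 4.68% of all genes, the log2 ratio was below −1 in each of the 3 lines. They were Ppat, Impdh1, Cad, Tk1, Dck, Rrm1, Rrm2, Tyms, Mthfd2, Mthfd1l, Shmt1 and Shmt2.

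**Figure D4:**
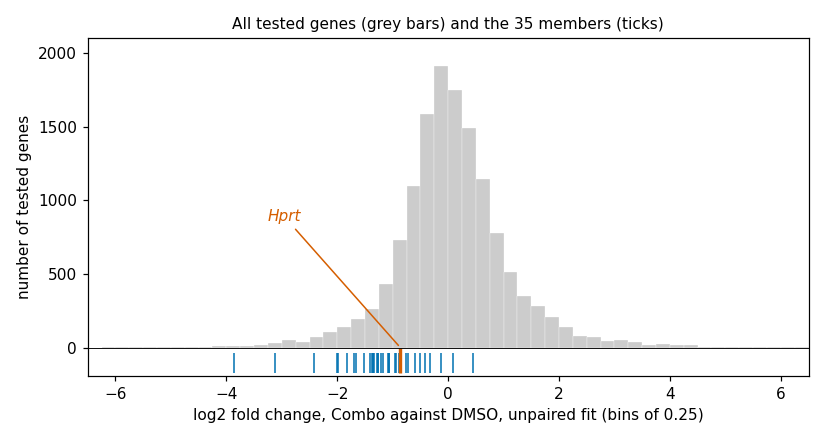
Grey bars count all 13836 tested genes by log2 fold change of the Combo against DMSO (horizontal axis, bins of 0.25, vertical axis the number of genes), and ticks under the axis mark the 35 members, with Hprt in orange. The genes as a whole centre near 0 (median 0.02), while the ticks centre at −1.21 and reach from −3.86 to 0.44.

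Each inhibitor alone moved the members little. With Crizotinib the median log2 fold change was −0.07, and 27 of 35 fold changes were negative, as were 50.3% of all genes. Of the 35, 0 passed in edgeR, with or without the block, or in DESeq2 or limma-voom. At an unadjusted p under 0.05 there were 0 members without the block and 1 with it (2.86%, against 1.86% of all genes). Over all genes 0 passed in the unpaired fit, or 0% of falls, and 18 genes had an unadjusted p under 0.05. With PD173074 the median was −0.13, and 31 of 35 fold changes were negative, as were 50% of all genes. In single lines the log2 ratio to DMSO reached −0.92 for Mthfd2 in A1005 and −0.9 for Tk1 in A1471. Again 0 members passed in either edgeR fit, in DESeq2 or in limma-voom. Of all genes, 0% fell in the unpaired fit and 0.52% with the block. At an unadjusted p under 0.05 there were 0 members without the block, beside 2.22% of all genes, and 3 with it (8.57%), beside 15.7% of all genes, so the members' share was not above that of all genes. The member nearest to the threshold was Mthfd2, with −0.56 and an adjusted p of 0.0667 in edgeR with the block. DMSO libraries are shared by these comparisons and by the one above.

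The Combo was also set against each drug alone, which shows what the added inhibitor changed. Against Crizotinib alone, 22 members (62.9%) fell with the Combo, beside 7.78% of all genes, and 32 (91.4%) did with the block, beside 26% of all genes. Their median log2 fold change was −1.14. Against PD173074 alone, 16 members (45.7%) fell, beside 3.93% of all genes, and with the block 31 (88.6%), beside 20.2% of all genes. The median was −1.01. Ctps2 rose in both comparisons with the block (log2 fold change 0.34 and 0.31, edgeR adjusted p = 0.0137 and 0.0293). Hprt had −0.76 against Crizotinib (SE 0.21, edgeR adjusted p = 0.0437) and −0.75 against PD173074 (SE 0.21, adjusted p = 0.0835, and 0.00567 with the block). Without A1129 and without A1471 the unpaired counts were 3 and 2 against Crizotinib, and 1 and 2 against PD173074. Against DMSO, falls over all genes also dropped in such fits, from 1146 to 236 and 108. The numbers over all genes for these 2 comparisons without a line are not given here.

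The departure from additivity compares the Combo with the sum of the log2 changes of both drugs given alone, so that a negative value is a fall beyond that sum. It was negative for 33 of the 35 members, with a median of −0.91 against 0.03 over all genes. In the unpaired fit 3 members passed (8.57%, against 0.911% of all genes): Tk1 at −3.31 (SE 0.63, edgeR adjusted p = 0.0446), Rrm2 at −2.70 (SE 0.41, adjusted p = 0.0169) and Umps at −1.25 (SE 0.24, adjusted p = 0.0446). Without any 1 of the lines the unpaired count was 0, and counts over all genes for these fits are not given here. DESeq2 called 7 members, for which no share of all genes is given here. With the block 25 members passed in edgeR (71.4%), each of them negative, beside 10.7% of all genes. Hprt was not among them, with −0.65 unpaired (SE 0.30, edgeR adjusted p = 0.572) and −0.62 with the block (adjusted p = 0.0812).

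The lines did not respond to the same degree. The median log2 ratio of the Combo to DMSO over the members was −0.84 in A1005, while A1129 had −1.33 and A1471 −1.3, and 33 members were lower in all 3 lines. The fall was smallest, or the rise largest, in A1005 for 25 of the 35. Shares of all genes are not given here for the counts of 33 and 25, so neither is shown to be particular to the members. The difference between lines was tested with interaction terms of line and Combo, chosen after the data were seen. In this fit each line has 1 Combo library and the spread comes from the additive fit of the other treatments. The test sets each line's Combo library against its libraries of the other treatments together, not against DMSO alone. It passed for 15 members (42.9%), against 17.2% of all genes. Hprt was one of them, at −0.40 for A1005, −0.84 for A1129 and −1.30 for A1471 (edgeR adjusted p = 0.00728). Dut had −0.50 in A1005 but −2.35 and −2.33 in the other two lines (adjusted p = 0.00517, edgeR). Rrm2 had −2.67, −3.09 and −3.86 in the same order (adjusted p = 0.00644, edgeR). Of these 15 members, 13 fell least in A1005, Adk in A1129 and Mthfd1l in A1471. Mthfd2 was nearly the same in each line, at −2.50, −2.35 and −2.44, and the test did not call it (edgeR adjusted p = 0.929). A1005 was also the line with Ptprc reads, and their part in this was not tested.

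Gapdh, the other gene used to normalise the study's qPCR, was at 2090, 1330 and 1690 CPM with DMSO and 1240, 735 and 1930 CPM with the Combo. It was lower in A1005 and A1129 and higher in A1471, and its log2 fold change was −0.39 (SE 0.35, edgeR adjusted p = 0.527, and 0.0741 with the block). The mean of the log2 changes of Hprt and Gapdh with the Combo was −0.57 for A1005, −0.85 for A1129 and −0.55 for A1471. With PD173074 it was −0.05, −0.1 and 0, and with Crizotinib −0.13, −0.28 and −0.14. The mean of both reference genes was thus lower with the Combo in every line on this scale, and by different amounts. Per the paper's methods, its qPCR merged fewer lines for the combination than for the other treatments, and they are not named there. The paper's primer list names Rpl13 beside Hprt and holds no pair for Gapdh, so which references were used is less certain. The values here are for all lines and are not those of the qPCR samples.

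Of 63 other genes of these pathways listed for comparison, 59 were tested, and 7 fell and 4 rose with the Combo in the unpaired fit. These shares of 11.9% and 6.78% lie near the 8.28% and 6.1% of all genes. With the block 23 fell and 15 rose (39% and 25.4%, against 26.2% and 28.6% of all genes). Their median log2 fold change was −0.23. Among the falls that passed was Upp1, a uridine phosphorylase, at 93.1, 39.3 and 19.3 CPM with DMSO and 4.66, 1 and 0.527 CPM with the Combo (log2 fold change −4.59, SE 1.03, edgeR adjusted p = 0.017). Its level differed widely between the lines and was lower with the Combo in each of them. The larger rises were Slc46a1, a folate transporter (1.57, SE 0.39, edgeR adjusted p = 0.0247), and Nt5c2, a nucleotidase (1.05, SE 0.17, adjusted p = 0.00343). Of 20 listed S phase and proliferation genes that are not members, 19 fell and 0 rose in the unpaired fit, with log2 fold changes of −2.59 to −1.31 and a median of −1.9. Their summed level was 3880 to 5130 CPM with DMSO, 3800 to 4700 with Crizotinib, 3620 to 4300 with PD173074 and 982 to 1260 with the Combo. They moved with the members, and their part in the result was not tested.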

How the data were processed

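RNA-sequencing was done on 12 libraries, 3 lines with 4 treatments. The authors deposited a table of raw counts, that is whole reads for every Ensembl gene without normalisation. Per the labels' processing notes the tools were bcl2fastq, STAR and HTSeq with the build mm10; their versions, the annotation release and the strand setting are not given in the sources used here, so overlapping genes and near-identical copies are less certain. Each table column matched 1 sample by name, and 0 columns were unmapped.

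Genes were filtered with filterByExpr of edgeR 4.0.16 (minimum count 10, minimum total 15), scaled by TMM and tested by quasi-likelihood in R 4.3.3, with treatment as the only term because the study's methods state an unpaired analysis. P-values were adjusted by Benjamini-Hochberg over all 13836 tested genes, with a threshold of 0.05. SEs and 95% confidence intervals come from the same fit. CPM are TMM-normalised counts at a common library size, and log2 ratios within a line were taken from these CPM with no prior count. A prior count of 2 entered only the log2 CPM used for the correlations given below. Each line has 1 library per treatment, so p-values of the unpaired fit measure the spread between lines. Those with the block measure the spread that is left once the mean differences between lines are taken out. The replicate names are the cell lines, so they pair the samples: the deviations of libraries of the same line from their group means correlated at 0.766 to 0.962 over 18 pairs, against at most −0.0472 over 36 pairs of different lines and treatments. Of 66 pairs of libraries 0 were identical, and chi-square over degrees of freedom was 4.9 or more. Tested genes held at least 99.85% of each library's counts.

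The members and lists were chosen with earlier results of these data known. Values in every library are given for Hprt, for the members with the largest and smallest absolute change in each role group, for members that rose and for paralog pairs; beyond the members, Gapdh and the 2 largest rises and falls among other pathway genes that passed are given, except for a result that is not reported here. Marker lists were mesenchymal (Vim, Zeb1, Twist1, Fn1, Cdh2), epithelial, immune, endothelial, and fibroblast and adipocyte. Positions and exon lengths are from GENCODE M21, promoter windows from RefSeq. The alternatives were the cell line as a replicate block, DESeq2 1.42.0, limma-voom (limma 3.58.1), DESeq2 size factors, total counts, no filter, a minimum of 10 counts in each library, a fit of the compared groups alone, a fold threshold of 1.5 (log2, in size), the prior count 0.5 and leaving out each line. Leaving out each line with the block, and the interaction of line and Combo, were added after the data were seen. The fits were tested on simulated data. Figures used Python 3.11.15.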

Additional observations from a re-analysis of the deposited data

Results flagged for a closer look

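For 15 members the change with the Combo differed between the 3 lines by the interaction of line and Combo, each line having 1 Combo library (edgeR adjusted p over all genes, which passed for 17.2% of them). In purine salvage these were Hprt (0.00728), Aprt (0.00946) and Adk (0.0411), and in PRPP supply Prps1 (0.0172). In the de novo purine chain they were Gart (0.0388), Pfas (0.0103), Adsl (0.0288) and Atic (0.0172), and in the pyrimidine route Umps (0.0403). Among the kinases they were Tk1 (0.0195), Dtymk (0.0183) and Nme1 (0.0163), and among deoxynucleotide and folate enzymes Rrm2 (0.00644), Dut (0.00517) and Mthfd1l (0.0475). The log2 ratio of the Combo to DMSO was smallest in size in A1005 for 13 of the 15, such as Pfas (−0.87, −2.01 and −1.68 for A1005, A1129 and A1471), Aprt (−0.89, −1.81 and −1.36), Tk1 (−3.08, −4.4 and −4.93) and Prps1 (−0.8, −1.12 and −1.77). An interaction of line and PD173074 called 0 members and 0 of 13836 genes in edgeR. Its spread came from the additive fit of the other treatments, the Combo among them. That spread holds the differences between lines with the Combo, so the test cannot show whether the lines responded alike to PD173074. Both interactions set a treatment's libraries against the other treatments together, not against DMSO alone.

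Ctps had opposite signs between lines, with a log2 ratio of the Combo to DMSO of 0.36 for A1005, 0.06 for A1129 and −0.17 for A1471. The interaction test did not call Ctps (edgeR adjusted p = 0.133).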

How the results depend on the processing

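The median change of the members with the Combo was −1.31 to −1 over all alternatives. The count of members called against DMSO was 27 with DESeq2 (26 falls and 1 rise), 22 with limma-voom and 23 with DESeq2 size factors. It was 21 with total counts, 21 with no filter and 24 with 10 counts in every library, all within 1.5 times of 24. Falls over all 13836 genes were 1112 with limma-voom, 1078 with DESeq2 size factors and 997 with total counts, from 1146. They were 1529 of 28504 with DESeq2, 736 of 28504 with no filter and 1059 of 10804 with 10 counts in every library. The count of members was 10 with only the groups compared, where 389 of 12868 genes fell, and 9 with the fold threshold, where 438 of 13836 did. The counts against Crizotinib were 10 and 7 under these, from 22, and those against PD173074 were 2 and 6, from 16. Counts over all genes under these settings are not given here for the 2 drugs. With the replicate block, which pairs libraries by line, the counts were 32 against DMSO, 33 against Crizotinib, 32 against PD173074 and 25, from 3, for the departure from additivity, where DESeq2 gave 7. Leaving out each line in turn gave 2 to 32 against DMSO (the unpaired values were 26, 3 and 2 without A1005, A1129 and A1471), 2 to 25 against Crizotinib, 1 to 20 against PD173074 and 0 for the departure. Unpaired falls over all genes against DMSO were then 1142 of 13568, 236 of 13791 and 108 of 14021. For the other comparisons such numbers are not given here. Hprt was at −1.05 to −0.60 over the alternatives. Its adjusted p in edgeR was 0.0751 with only the groups compared (−0.86), 0.237 without A1129 and 0.197 without A1471. Ctps was at −0.04 to 0.23 over the alternatives, its sign reversed without A1005 (−0.04 with and without the block). Fewer libraries enter the fits of only the groups compared and those without a line; otherwise the cause was not tested. No scaling moved the median of all genes by over 0.1 from 0.02. The lowest count of a member was 48, and the effect of depth on the calls was not tested.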
